A study of Mus musculus with 30 samples.

Results

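The translation initiation factors are the proteins that bring the initiator tRNA, the small ribosomal subunit and the messenger RNA together and then join the large subunit at the start codon. Their genes were taken as every probe set with a single gene symbol starting with Eif1, Eif2, Eif3, Eif4, Eif5 or Eif6. This gave 54 of the 72688 probe sets, which stand for 53 of the 30142 genes tested. Of the 53 genes, 41 were counted by name as genes of factors or their relatives. Another 4 are the Eif2ak kinases that phosphorylate eIF2, and 2 are the Eif4ebp repressors of cap binding. The rest are 5 pseudogenes named after a factor and 1 Argonaute gene under an older name (Eif2c5). On every array 49 of the 53 genes lay above the floor, which is the level below which 95% of 1225 olfactory receptor genes lay. Eif2s3y, Eif4e1b and Eif2c5 lay below it on all 30 arrays, and Eif2b4 was above it on some arrays. Eif1, Eif2s1, Eif3g, Eif3j1, Eif4a2, Eif4a3, Eif4g1, Eif5 and Eif4ebp3 have no probe set with a single symbol among these and were not analysed here.

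The data are Affymetrix array readings of whole uteri of female mice aged 21 days, before puberty. Wild-type (WT) mice were set beside mice carrying the Ex3aERKO allele, a knockout (KO) of estrogen receptor alpha, which Esr1 encodes. Each genotype has 5 groups of 3 arrays. Vehicle mice received 100 µl of saline and were sampled after 24 h. Estradiol (E2) mice received 250 ng in 100 µl of saline and were sampled after 2 h or 24 h. IGF1, insulin-like growth factor 1, was given at 50 µg in PBS once, with sampling at 2 h, or 3 times (at 0, 8 and 16 h), with sampling 24 h after the first injection. A vehicle group exists at 24 h only and in saline only, so each 2 h comparison with vehicle also holds the time since injection, and each IGF1 comparison also holds PBS against saline. Which animals or pools the 3 arrays of a group come from is not stated, so the p-values rest on the spread between these arrays, which may be technical.

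Initiation is carried out in steps. eIF2 delivers the initiator tRNA and is recharged by the exchange factor eIF2B; the eIF2 kinases PERK, PKR, HRI and GCN2 block that recharging under stress. eIF4F, made of the cap-binding protein eIF4E, the helicase eIF4A and a scaffold, opens the messenger RNA, and 4E-BP proteins hold eIF4E back until mTOR, a kinase downstream of IGF1 signalling, phosphorylates them. In the uterus estradiol is known to raise RNA and protein synthesis and then cell division, and local IGF1 is a known mediator of estradiol's growth effect.

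Esr1 was lower in the KO in all 5 genotype comparisons, by -1.73 to -2.14 on the log2 scale, and by -2.04 ± 0.19 (SE, n = 3 per group; limma adjusted p = 2.17e-06) with vehicle. Array medians lay between 6.17 and 6.47 and the floor between 5.69 and 6.57. Markers of uterine epithelium, stroma and smooth muscle were bright on all arrays, with list means from 9.17 upwards. The WT vehicle array of replicate 1 stood apart: Xist, which the inactive X chromosome expresses, was at 10.16 there and at 17.01 to 18.12 on the other 29 arrays, while the Y-linked Uty and Kdm5d were at 4.86 and 5.13, near or below the floor. It had the lowest array weight, 0.166 where the highest was 3.66. The X-linked factor gene Eif2s3x was at 10.91 there and at 11.36 to 13.50 elsewhere, and Eif3l was at 8.93 there against 11.08 and 11.29 on the other WT vehicle arrays. In all, 7.55% of the 53 genes were lower by more than 1 on that array than the mean of the other WT vehicle arrays, where 2.78% of all genes were. Calls that were lost without that array are named beside the results they belong to.

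In WT uteri both agents raised initiation factor genes within 2 h, and estradiol raised still more of them at 24 h. With estradiol at 2 h 22 of the 53 genes were higher than in vehicle and 2 were lower at a limma adjusted p below 0.05, where 19.0% of all genes tested were called (9.84% higher and 9.18% lower). With IGF1 at 2 h 26 were higher and 0 lower, where 17.2% of all genes were called (9.54% higher and 7.64% lower). The median log2 difference over the 53 genes was 0.33 with estradiol and 0.49 with IGF1, beside -0.09 and -0.08 over all genes. Both comparisons use the same vehicle arrays. The shares of all genes, here and below, include many dim genes. Of 30142 genes, 17440 lay above the floor on all 3 arrays of some group and 12702 did not. Of the 53 genes, 49 lay above it on every array. Shares among genes of like brightness were not computed, so the counts are not set against such genes. After quantile normalization the IGF1 split became 22 higher and 3 lower. Of the estradiol calls 17 of 24 held whichever 1 array of the compared groups was left out, the others being Eif1b, Eif2ak1, Eif2b2, Eif2b3, Eif2s3x, Eif4e2 and Eif5al3-ps. Of the IGF1 calls 19 of 26 did, the others being Eif1ax, Eif2s3x, Eif3c, Eif3j2, Eif3l, Eif4ebp1 and Eif4ebp2. Eif1ax and Eif3c were among those lost without WT vehicle replicate 1 (limma adjusted p = 0.176 and 0.149). Among the cell markers 6 of 9 stromal genes were lower with estradiol at 2 h (list mean 10.2 on each array, beside 11.2 to 11.6 with vehicle) and 4 of 12 epithelial genes were higher with IGF1 at 2 h, and their part in these counts was not tested. In whole tissue, more RNA per cell and more cells of an expressing type cannot be told apart in any of these values.

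**Figure D1:**
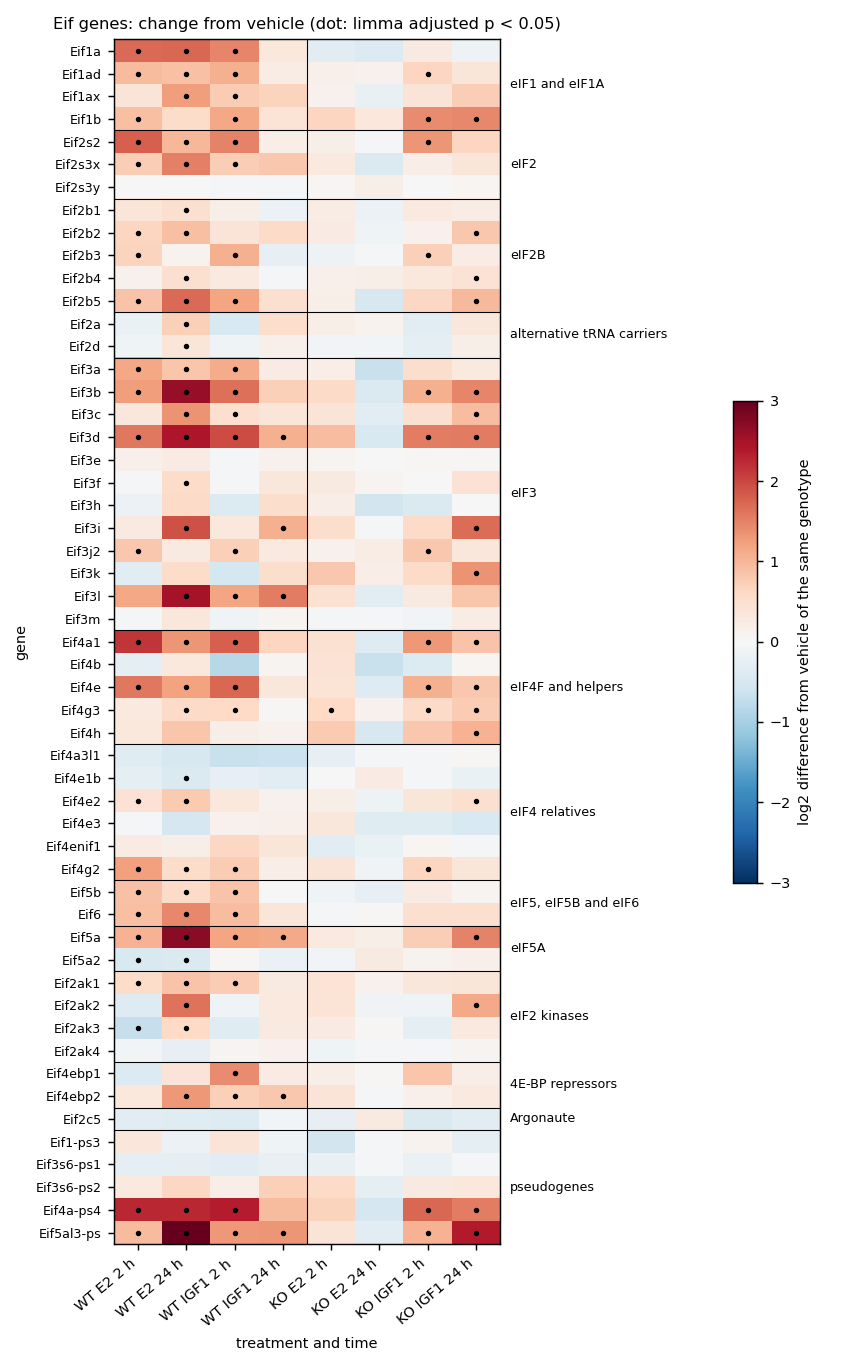
Log2 difference from the vehicle group of the same genotype for the initiation factor genes (vertical axis, ordered by complex) in the 8 treated groups (horizontal axis), on a colour scale from lower (blue) to higher (red), with a dot at values called at a limma adjusted p below 0.05. The WT estradiol columns, the IGF1 2 h columns and the KO IGF1 24 h column hold most of the raised genes. The KO estradiol columns hold 1 call at 2 h and 0 at 24 h.

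The largest early rise of a factor gene with estradiol was in the cap-binding machinery. Eif4a1, the RNA helicase of eIF4F, was at 12.22, 12.71 and 12.81 in the 3 WT vehicle arrays, at 14.68, 14.75 and 14.76 with estradiol at 2 h, and at 14.22, 14.57 and 14.35 with IGF1 at 2 h. All 6 treated arrays lay above all vehicle arrays, by more than 1 log2 unit throughout. Eif4a1 rose 4.43-fold with estradiol (log2 difference 2.15 ± 0.26, SE, n = 3 per group; limma adjusted p = 1.56e-06) and by 1.80 ± 0.26 with IGF1 (adjusted p = 4.5e-05). Eif4e, the cap-binding protein itself, was at 10.73, 10.67 and 10.55 with vehicle, at 12.15, 12.30 and 12.23 with estradiol and at 12.26, 12.38 and 12.49 with IGF1. These groups did not overlap either, and the rises were 1.57 ± 0.25 (adjusted p = 5.91e-05) and 1.73 ± 0.25 (adjusted p = 4.61e-05). The scaffold gene Eif4g3 rose with IGF1 at 2 h by 0.60 ± 0.12. Of the 5 genes of eIF4F and its helpers, 2 rose with estradiol and 3 with IGF1 at 2 h, beside 9.84% and 9.54% of all genes. Eif4b, a cofactor of the helicase, differed by -0.82 ± 0.32 with IGF1 at 2 h, which missed the threshold (adjusted p = 0.0797).

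Eif4g2 encodes DAP5, a scaffold relative that lacks the eIF4E-binding part. It was at 13.30, 13.96 and 13.92 with vehicle, at 14.96, 14.99 and 14.95 with estradiol at 2 h and at 14.46, 14.40 and 14.62 with IGF1 at 2 h. The estradiol arrays were the highest and lay within 0.04 of each other in these rounded values. It rose by 1.24 ± 0.14 with estradiol (limma adjusted p = 4.45e-07) and by 0.77 ± 0.14 with IGF1. Direct comparison of the 2 agents at 2 h gave 0.47 ± 0.14 in favour of estradiol (adjusted p = 0.0423). Eif4e2, a cap-binding relative known for repressing translation, rose by 0.43 ± 0.13 with estradiol at 2 h although its groups overlapped.

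The pseudogene probe set Eif4a-ps4 moved with Eif4a1. It read 13.85, 14.40 and 14.53 with vehicle, 16.48, 16.55 and 16.51 with estradiol at 2 h, and 16.58, 16.73 and 16.56 with IGF1 at 2 h. The treated arrays again all lay above the vehicle arrays, by 2.25 ± 0.36 (limma adjusted p = 5.02e-05) and 2.36 ± 0.36 (adjusted p = 6.12e-05). A processed pseudogene is near-identical to its parent in sequence, so signal of Eif4a-ps4 and Eif4a1 may be shared, as may that of Eif5al3-ps and Eif5a, and of Eif1a and Eif1ax. Each such pair is therefore not a set of independent measurements.

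The eIF2 and eIF1 genes, which act at start codon selection, also rose early. Eif2s2, the beta subunit of eIF2, was at 12.10, 11.96 and 11.74 with vehicle, at 13.67, 13.64 and 13.85 with estradiol at 2 h and at 13.28, 13.62 and 13.36 with IGF1 at 2 h. No treated array overlapped with vehicle, and the rises were 1.79 ± 0.27 (limma adjusted p = 2.46e-05) and 1.49 ± 0.27 (adjusted p = 0.000329). Eif1a rose by 1.70 ± 0.22 with estradiol and by 1.46 ± 0.22 with IGF1, from 9.27, 9.76 and 9.49 to between 10.82 and 11.30. Eif1ad, placed with eIF1A by its name only, rose by 0.96 ± 0.17 and by 1.07, and Eif1b by 0.89 ± 0.29 (adjusted p = 0.0283) and by 1.16 ± 0.29. Eif2s3x, the X-linked gamma subunit gene, was called with both agents, at 0.73 ± 0.25 (adjusted p = 0.0391) and 0.75 ± 0.25 (adjusted p = 0.0385). Without the WT vehicle array of replicate 1, where it was lowest, the differences were 0.24 (adjusted p = 0.414) and 0.25 (adjusted p = 0.383). Its Y-linked copy Eif2s3y stayed below the floor, between 4.85 and 5.43, and differed by 0.01 ± 0.12 and -0.06 ± 0.12. In the exchange factor eIF2B, 3 of the 5 subunit genes rose with estradiol and 2 with IGF1, beside 9.84% and 9.54% of all genes. Eif2b5, the catalytic epsilon subunit, rose by 0.85 ± 0.20 and 1.19 ± 0.20. Eif2b3, the gamma subunit, rose by 0.67 with estradiol and by 1.07 ± 0.19 with IGF1, from 8.25, 7.99 and 8.05 to 9.05, 9.21 and 9.23 in the latter.

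eIF3 is the large scaffold that holds the small ribosomal subunit open, and 12 of its subunit genes were measured. With estradiol 4 rose at 2 h, with IGF1 6, and 0 fell with either, where 9.84% and 9.54% of all genes rose. Eif3d, the subunit that can itself bind the cap of some messengers, was at 11.09, 11.60 and 11.81 with vehicle, at 13.05, 12.94 and 13.25 with estradiol and at 13.49, 13.43 and 13.44 with IGF1. The groups lay apart by more than 1, and the rises were 1.58 ± 0.31 (limma adjusted p = 0.000562) and 1.95 ± 0.31 (adjusted p = 0.0001). A further probe set of Eif3d, much dimmer at 5.87 to 8.12, rose by 1.35 and by 1.24. Eif3b, a core scaffold subunit, was at 9.62, 9.40 and 9.45 with vehicle, at 10.80, 10.77 and 10.66 with estradiol and at 10.99, 11.14 and 11.31 with IGF1, again without overlap. Its rises were 1.26 ± 0.29 (adjusted p = 0.00298) and 1.66 ± 0.29 (adjusted p = 0.000305). Eif3a rose by 1.17 ± 0.19 and 1.12, and Eif3j2 by 0.80 ± 0.21 and 0.73. Eif3l was called with IGF1 only, at 1.19 ± 0.42 (adjusted p = 0.0496), beside 1.17 ± 0.42 with estradiol (adjusted p = 0.0519). Without WT vehicle replicate 1 its IGF1 difference was 0.44 (adjusted p = 0.468).

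The last steps use eIF5B, which joins the subunits, eIF6, which keeps the large subunit free until it is ready, and eIF5A, which carries hypusine and also acts in elongation. Both Eif5b and Eif6 rose at 2 h, by 0.88 ± 0.15 and 0.90 ± 0.16 with estradiol and by 0.86 and 0.92 with IGF1. Eif5a was at 8.83, 9.17 and 9.19 with vehicle, at 10.08, 10.16 and 10.07 with estradiol at 2 h and at 10.14, 10.39 and 10.24 with IGF1 at 2 h. It rose by 1.04 ± 0.24 (limma adjusted p = 0.00231) and by 1.19 ± 0.24 (adjusted p = 0.000846), with no overlap. Its paralog Eif5a2 fell by 0.47 ± 0.11 with estradiol (adjusted p = 0.00367), from 7.76, 7.58 and 7.81 to 7.41, 7.28 and 7.05. With IGF1 it read 7.73, 7.69 and 7.81, overlapping the vehicle values, and the 2 agents differed by -0.50 ± 0.11 (adjusted p = 0.00569).

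Promoter windows of 300 bases, from 250 before to 50 after the transcription start, were taken from RefSeq for mouse build GRCm38.p6 and matched 37 of the 53 genes. CACGTG, the E-box that MYC with MAX and several other basic helix-loop-helix proteins can bind, stood in the window of 9 of the 37 (24.3%), where 8.09% of 27025 genes and 7.15% of 32851 windows of this length held it. The motif is its own reverse complement, so both strands read alike. The 9 genes were Eif1b, Eif3a, Eif3f, Eif3k, Eif4a1, Eif4e, Eif4h, Eif5a and Eif5a2. The palindromic estrogen response element (GGTCA, any 3 bases, TGACC), searched on both strands, was found for 0 of the 37 genes. It was found for 20 of the 27025 genes (0.074%), so rarely that 0 of 37 cannot tell these genes from others. TGATGNAA, a form of the C/EBP-ATF element to which ATF4 binds, was in 1 (Eif2s3x), or 2.7%, beside 4.51%. A match describes letters in the window and is not a measured binding site. The 4 stretches below are shown because they lie upstream of the start of genes that rose at 2 h with both agents in WT uteri. Each has 30 bases on the gene's own strand, and the capitals mark the E-box. Eif3a rose with both agents too, and its E-box lies after the start, so it is not shown. Of the other E-box genes, Eif3f, Eif3k and Eif4h were not called at 2 h in WT uteri, and Eif5a2 fell with estradiol. Whether the E-box bears on the early rise was not tested.
Eif4a1 (chr11:69672595-69672624, minus strand): cgatcgcctccgCACGTGtaaaggtgctgg
Eif4e (chr3:138527028-138527057, plus strand): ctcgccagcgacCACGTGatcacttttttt
Eif1b (chr9:120492570-120492599, plus strand): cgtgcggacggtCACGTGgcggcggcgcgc
Eif5a (chr11:69921443-69921472, minus strand): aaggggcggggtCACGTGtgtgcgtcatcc
The first base of the E-box lies 189 bases before the start in Eif4a1, 228 in Eif4e, which holds 2 E-boxes upstream, 24 in Eif1b and 74 in Eif5a.

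Of the 6 regulator genes, 1 rose and 1 fell with estradiol and 3 rose and 0 fell with IGF1 at 2 h. Of all genes, 9.84% rose and 9.18% fell with estradiol, and 9.54% rose and 7.64% fell with IGF1. Eif4ebp1, which encodes the 4E-BP1 repressor, was at 9.57, 9.45 and 8.91 with vehicle and at 8.58, 9.13 and 9.03 with estradiol at 2 h, a difference of -0.40 ± 0.39 that missed the threshold (limma adjusted p = 0.561). With IGF1 at 2 h it read 10.04, 12.16 and 9.98, all above vehicle, with replicate 2 far above the others. The IGF1 difference was 1.41 ± 0.39 (adjusted p = 0.0136), but without that replicate it was 0.69 (adjusted p = 0.142), and without WT vehicle replicate 3 it was 1.21 (adjusted p = 0.0638). Estradiol minus IGF1 at 2 h was -1.81 ± 0.39 (adjusted p = 0.00428), and -1.09 (adjusted p = 0.0337) without IGF1 replicate 2. Eif4ebp2, the related 4E-BP2 gene, was at 10.81, 11.59 and 11.59 with vehicle and at 11.91, 12.19 and 12.01 with IGF1 at 2 h, a rise of 0.71 ± 0.18 (adjusted p = 0.00649). Its lowest value again came from vehicle replicate 1, and without that array the difference was 0.45 (adjusted p = 0.0692).

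Among the eIF2 kinases, Eif2ak3 (PERK, the sensor of unfolded protein in the endoplasmic reticulum) fell with estradiol at 2 h. It was at 7.85, 7.95 and 7.94 with vehicle and at 7.12, 7.15 and 7.42 with estradiol, without overlap, a fall of 0.68 ± 0.14 (limma adjusted p = 0.00074); with IGF1 the difference was -0.37 ± 0.14 (adjusted p = 0.0687). Eif2ak1 (HRI, the heme-regulated kinase) was at 8.03, 8.29 and 8.36 with vehicle, at 8.62, 8.84 and 8.90 with estradiol and at 8.99, 9.12 and 8.83 with IGF1. It rose by 0.56 ± 0.16 (adjusted p = 0.0156) and by 0.75 ± 0.16 (adjusted p = 0.00179), the former becoming 0.46 (adjusted p = 0.0873) without vehicle replicate 1. Eif2ak2 (PKR, the kinase activated by double-stranded RNA) differed by -0.39 ± 0.20 and -0.13 ± 0.20 and Eif2ak4 (GCN2, the amino acid sensor) by -0.08 ± 0.13 and 0.09 ± 0.13, none of them called.

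**Figure D2:**
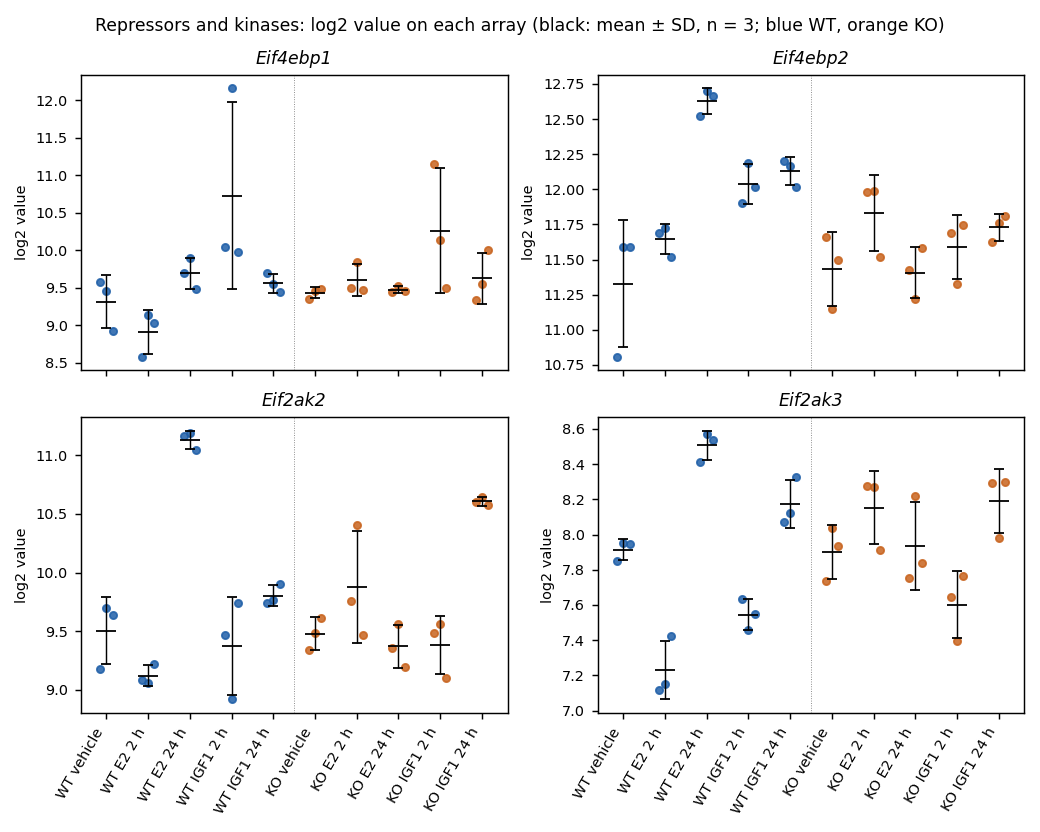
Log2 expression (vertical axis) of Eif4ebp1, Eif4ebp2, Eif2ak2 and Eif2ak3 on each of the 30 arrays, by group (horizontal axis), 1 point per array (blue WT, orange KO) with the group mean ± SD in black. Eif2ak2 is highest with estradiol at 24 h in WT (11.04 to 11.19), and the Eif4ebp1 mean of the WT IGF1 2 h group contains 1 array at 12.16.

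At 24 h estradiol in WT uteri gave the widest response: 32 of the 53 genes were higher than with vehicle and 2 lower, where 30.1% of all genes were called (16.8% higher and 13.3% lower). The median difference was 0.59, beside -0.10 over all genes. Quantile normalization gave 23 higher and 6 lower. Centring each array on its median moved the median of all genes by about 0.1 and left the split at 32 and 2. Of the 34 calls 30 held whichever 1 array was left out, the others being Eif2a, Eif2b1, Eif2d and Eif3f. Eif2a, Eif2d and Eif3f were lost without WT vehicle replicate 1 (limma adjusted p = 0.119, 0.0607 and 0.134). Of the 12 eIF3 genes 7 rose, of 5 eIF2B genes 4, of 4 eIF1 and eIF1A genes 3, of 5 eIF4F genes 3, and both genes of the alternative tRNA carriers (Eif2a and Eif2d), of eIF2 without its Y-linked copy, and of eIF5B and eIF6 rose.

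Eif5a had the largest rise of any single factor. It read 11.57, 11.85 and 11.85 with estradiol at 24 h, more than 2 log2 units above each of the 3 vehicle arrays (8.83, 9.17 and 9.19), which is a 6.48-fold rise (log2 difference 2.70 ± 0.24, SE, n = 3 per group; limma adjusted p = 9.34e-09). The probe set of its pseudogene Eif5al3-ps went from 8.61, 8.30 and 8.03 to 11.65, 11.54 and 11.31, a rise of 3.19 ± 0.30 (adjusted p = 2.26e-08). Eif5a2 again fell, by 0.43 ± 0.11 (adjusted p = 0.00512), so that the paralogs moved in opposite directions at both times.

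In eIF3 the core subunit Eif3b went from 9.62, 9.40 and 9.45 to 11.83, 12.33 and 12.13, a rise of 2.61 ± 0.29 (limma adjusted p = 3.81e-07). Eif3d went to 13.64, 14.19 and 13.93, a rise of 2.42 ± 0.31 (adjusted p = 2.13e-06), and its dimmer probe set rose by 0.91. Eif3i, the WD-repeat subunit, went from 11.52, 11.80 and 11.89 to 13.61, 13.68 and 13.66. It rose by 1.91 ± 0.28 (adjusted p = 1.03e-05) after showing no call at 2 h, when it read 11.83, 12.10 and 12.08. Eif3l, at 12.70, 13.19 and 12.94, was higher by 2.51 ± 0.42 (adjusted p = 5.98e-05), and by 1.75 without WT vehicle replicate 1, still called. Eif3c rose by 1.35 ± 0.17, while Eif3e, Eif3h, Eif3k and Eif3m differed by 0.24 ± 0.20, 0.57 ± 0.32, 0.55 ± 0.29 and 0.34 ± 0.21 and missed the threshold.

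**Figure D3:**
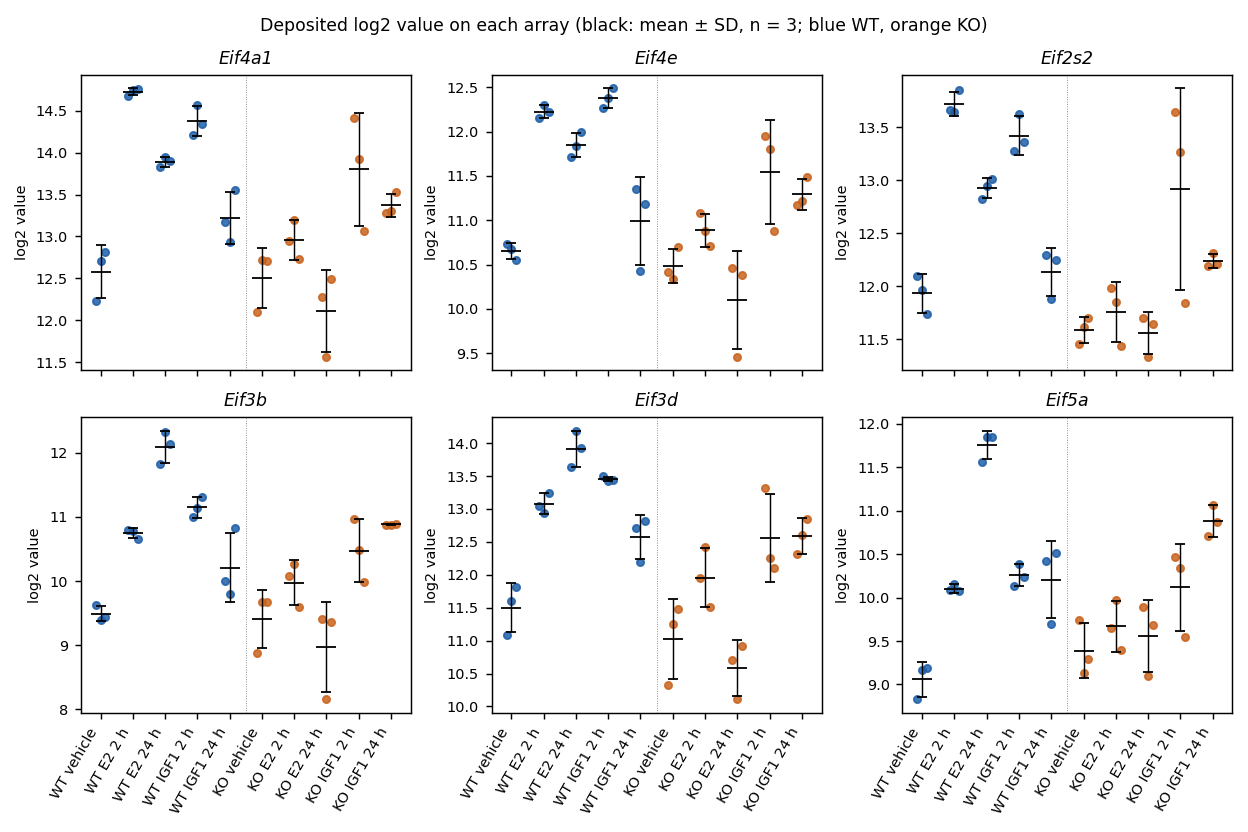
Log2 expression (vertical axis) of 6 factor genes on each of the 30 arrays, by group (horizontal axis), 1 point per array (blue WT, orange KO) with the group mean ± SD in black. Eif4a1, Eif4e and Eif2s2 are highest at 2 h in WT uteri, and Eif3b and Eif5a at 24 h with estradiol. In the KO none of the 6 genes was called with estradiol. The Eif3d arrays of that treatment at 2 h (11.95, 12.42 and 11.51) lie above KO vehicle (10.33, 11.26 and 11.48).

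The early risers of the cap-binding and eIF2 groups were still above vehicle at 24 h. Eif4a1 was at 13.83, 13.95 and 13.90 (1.31 ± 0.26 above vehicle; limma adjusted p = 0.000436), Eif4e at 11.72, 11.83 and 12.00 (1.20 ± 0.25; adjusted p = 0.000776) and Eif2s2 at 12.82, 12.94 and 13.01 (0.99 ± 0.27; adjusted p = 0.00645). All 3 genes lay between their vehicle and their 2 h values. The Eif2s2 call was lost in 1 of 15 other settings (highest limma adjusted p = 0.175). Eif1a, at 11.07, 11.37 and 11.28, was higher than vehicle by 1.73 ± 0.22 (adjusted p = 1.45e-06), close to its 2 h level. Eif2b5 rose by 1.70 ± 0.20 (adjusted p = 6.02e-07), Eif6 by 1.45 ± 0.16 (adjusted p = 3.22e-07) and Eif2s3x by 1.51 ± 0.25 (adjusted p = 5.08e-05), the last by 1.02 without WT vehicle replicate 1. Eif4g2 (0.56 ± 0.14) and Eif5b (0.57) were called higher, but quantile normalization turned them to -0.15 and -0.031. Eif4e1b, an oocyte-type eIF4E gene, was called at -0.44 ± 0.12 with all its values below the floor, so its difference describes background signal.

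Of the 6 regulator genes 4 rose with estradiol at 24 h, beside 16.8% of all genes. Eif2ak2 went from 9.18, 9.70 and 9.64 to 11.16, 11.19 and 11.04, more than 1 above every array of every other WT group, a rise of 1.62 ± 0.20 (limma adjusted p = 1.03e-06). Eif2ak3, lower than vehicle at 2 h, was at 8.41, 8.57 and 8.54, now above vehicle by 0.59 ± 0.14 (adjusted p = 0.00201). Eif2ak1 rose by 0.86 ± 0.16 (adjusted p = 0.000247), and Eif2ak4 differed by -0.24 ± 0.13 (adjusted p = 0.169). Eif4ebp2 went to 12.52, 12.70 and 12.67, above every vehicle array, a rise of 1.30 ± 0.18 (adjusted p = 5.32e-06), while Eif4ebp1 differed by 0.38 ± 0.39 (adjusted p = 0.491). The tissue also differed in its cell markers at that time. All 3 cycling genes and 10 of 12 epithelial genes were higher, with the cycling list at 11.2 to 12.1 against 7.20 to 7.72 with vehicle and the epithelial list at 11.5 to 11.6 against 9.17 to 9.53. Of the stromal markers 3 of 9 were higher and 1 lower, and of the smooth muscle markers 2 of 6 were higher. The floor was at 5.69 to 5.84 on the WT E2 24 h arrays and at 5.86 to 6.50 with vehicle. The part of these markers and of array brightness in the factor changes was not tested.

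With IGF1 fewer genes were called in WT at 24 h, which is 8 h after the last injection. Here 6 of the 53 genes were higher than with vehicle and 0 lower, where 4.28% of all genes were called (3.32% higher and 0.962% lower), and quantile normalization gave 2 and 1. The 6 were Eif5a (1.15 ± 0.24; limma adjusted p = 0.00762), Eif5al3-ps (1.33 ± 0.30; adjusted p = 0.0122), Eif4ebp2 (0.80 ± 0.18; adjusted p = 0.012), Eif3l (1.54 ± 0.42; adjusted p = 0.035), Eif3i (1.07 ± 0.28; adjusted p = 0.0264) and Eif3d (1.08 ± 0.31; adjusted p = 0.0475). Eif5a was at 10.42, 9.70 and 10.51, all above vehicle, and Eif5al3-ps at 10.21, 8.80 and 9.91, with replicate 2 the lowest in both. Eif3l was at 12.06, 11.92 and 11.95, above all 3 vehicle values. The dimmer probe set of Eif3d differed by 0.21 and was not called (limma adjusted p = 0.653). The count rested on single arrays: without WT vehicle replicate 1 it was 2 (Eif5a at 1.03 with adjusted p = 0.0462, and Eif5al3-ps at 1.48), without WT IGF1 24 h replicate 3 it was 1, and without WT IGF1 24 h replicate 1 it was 0. Eif4a1 was at 13.18, 12.93 and 13.55 (0.64 ± 0.26; adjusted p = 0.182), Eif4e at 11.36, 10.42 and 11.18 (0.34 ± 0.25; adjusted p = 0.486) and Eif2s2 at 12.29, 11.88 and 12.24 (0.20 ± 0.27; adjusted p = 0.7). The kinases Eif2ak1, Eif2ak2, Eif2ak3 and Eif2ak4 differed by 0.26, 0.30, 0.26 and 0.13 and none was called. All 3 cycling markers were higher in this group too (list mean 9.53 to 9.82).

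Setting 24 h against 2 h directly separated early from late genes. With estradiol 20 of the 53 genes were higher at 24 h than at 2 h and 5 lower, where 27.4% of all genes were called (17.0% higher and 10.4% lower); quantile normalization gave 12 and 9. The late risers were led by Eif5al3-ps (2.23), Eif2ak2 (2.01 ± 0.20; limma adjusted p = 2.83e-08), Eif3i (1.65 ± 0.28; adjusted p = 5.47e-05) and Eif5a (1.65 ± 0.24; adjusted p = 7.66e-06). Eif2ak3 was higher by 1.28 ± 0.14 (adjusted p = 1.23e-07) and Eif4ebp2 by 0.98 ± 0.18. Eif3d was among the 20, at 0.84, while its dimmer probe set was at -0.44 and was not called (limma adjusted p = 0.208). The 5 that were lower were Eif4a1 (-0.83 ± 0.26; adjusted p = 0.0179), Eif2s2 (-0.80 ± 0.27; adjusted p = 0.0274), Eif4g2 (-0.68 ± 0.14; adjusted p = 0.000488), Eif2b3 (-0.56 ± 0.19) and the pseudogene Eif1-ps3 (-0.52). Of the cell markers all 3 cycling, 11 of 12 epithelial and 7 of 9 stromal genes were also higher at 24 h than at 2 h with estradiol, and 1 stromal gene was lower; their part was not tested. Of these 25 calls 14 held whichever array was left out.

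With IGF1 the balance was the other way, with 3 genes higher and 17 lower at 24 h, where 14.5% of all genes were called (7.94% higher and 6.57% lower). Eif2b3 was lower by -1.30 ± 0.19 (limma adjusted p = 5.04e-05), Eif4e by -1.39 ± 0.25 (adjusted p = 0.000462) and Eif4ebp1 by -1.17 ± 0.39 (adjusted p = 0.0478). The 3 that were higher were Eif3k (1.06 ± 0.29; adjusted p = 0.0146), Eif2a (0.97 ± 0.21; adjusted p = 0.00203) and Eif2ak3 (0.63 ± 0.14; adjusted p = 0.00266). These time comparisons share no arrays. The 5 genes lower with estradiol were all lower with IGF1 too, which is 100% of 5 and 29.4% of 17. Another 3, Eif2b5, Eif3b and Eif6, were higher at 24 h with estradiol but lower with IGF1 (15% of 20 and 17.6% of 17), and Eif2a, Eif2ak3 and Eif3k were higher with both (15% of 20 and 100% of 3). The same overlaps were not computed over all genes, so these percentages do not set the family apart. With IGF1 all 3 cycling, 4 of 9 stromal and 1 of 12 epithelial markers were higher at 24 h. Of the 20 IGF1 calls 12 held whichever array was left out.

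**Figure D4:**
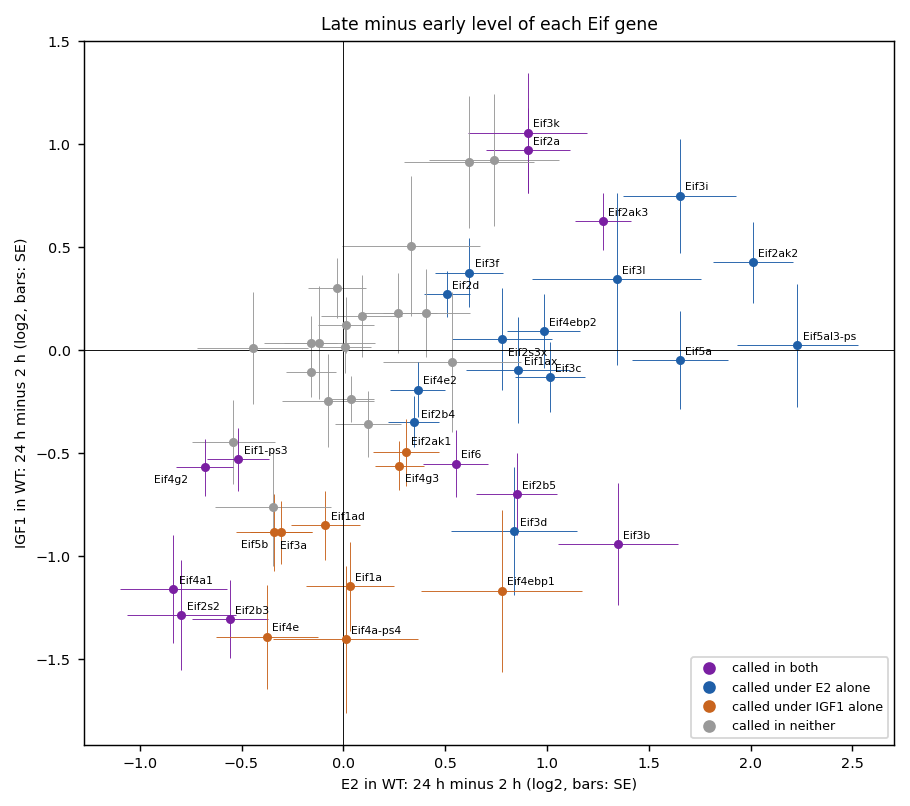
Log2 difference between 24 h and 2 h in WT uteri for each initiation factor gene, with estradiol on the horizontal and IGF1 on the vertical axis, 1 point per gene with its SE, coloured by where it was called. Eif2ak2, Eif3i and Eif5a lie at the estradiol-late end (2.01, 1.65 and 1.65), and Eif4e, Eif2b3 and Eif4a1 lie low on the IGF1 axis (-1.39, -1.30 and -1.16).

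Few genes differed between the agents at 2 h and more did at 24 h. At 2 h estradiol minus IGF1 gave 1 gene higher (Eif4g2) and 2 lower (Eif4ebp1 and Eif5a2), where 5.57% of all genes were called (2.80% higher and 2.77% lower); quantile normalization gave 0 and 2, and so did median centring. At 24 h it gave 19 higher and 0 lower, where 10.1% of all genes were called (7.59% higher and 2.49% lower). Eif3b led the factors (1.89 ± 0.29), followed by Eif5a (1.55 ± 0.24), Eif1a (1.42 ± 0.22), Eif3d (1.34) and Eif2b5 (1.21), and Eif2ak2 was higher by 1.33 ± 0.20 (limma adjusted p = 5.61e-05). The dimmer probe set of Eif3d differed by 0.69 and was not called (limma adjusted p = 0.0749). All 3 cycling and 6 of 12 epithelial markers were higher with estradiol as well, and at 2 h 5 of 9 stromal markers were lower; their part was not tested. In these comparisons 1 of 3 calls at 2 h (Eif4ebp1) and 10 of 19 at 24 h held whichever array was left out; Eif4g2 at 2 h was lost without any 1 of the 6 arrays. Estradiol was given once and IGF1 3 times before the 24 h samples.

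In the KO estradiol changed almost none of these genes past the threshold. At 2 h 1 of the 53 genes was higher and 0 lower, where 0.365% of all genes were called (0.259% higher and 0.106% lower); after quantile normalization the split was 1 and 1. The 1 gene was Eif4g3, at 8.62, 8.64 and 8.75 with vehicle and 9.24, 9.45 and 9.10 with estradiol, higher on every array by 0.60 ± 0.12 (limma adjusted p = 0.0255). That call was lost without KO E2 2 h replicate 1 or 2 or without KO vehicle replicate 1 or 2, and the count was then 0. Eif4a1 read 12.09, 12.72 and 12.70 with vehicle and 12.94, 13.20 and 12.73 with estradiol (0.45 ± 0.26; adjusted p = 0.503), and Eif3d differed by 0.93 ± 0.31 (adjusted p = 0.206). The medians were 0.20 over the 53 genes and -0.06 over all genes. At 24 h limma called 0 of the 53 genes and 0 of all 30142 genes (0% in both directions), as did the fit with array weights; at an unadjusted p below 0.05 there were 2 higher and 3 lower among the 53 and 3735 among all genes. Eif5a read 9.89, 9.10 and 9.68 beside 9.74, 9.13 and 9.29 with vehicle, the groups overlapping, with a difference of 0.17 ± 0.24 and a 95% interval from -0.32 to 0.66. The kinase and repressor genes differed by -0.11 (Eif2ak2) to 0.12 (Eif2ak1). The KO E2 24 h array of replicate 2 read low across many factors (Eif3b at 8.15, beside 9.40 and 9.35), with a floor of 6.57, the highest of all 30 arrays, and an array weight of 0.259.

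IGF1 raised initiation factor genes in the KO as well. At 2 h 13 of the 53 genes were higher and 0 lower, where 7.13% of all genes were called (4.19% higher and 2.95% lower). Eif4a1 rose by 1.29 ± 0.26 (limma adjusted p = 0.00447), with arrays at 14.41, 13.92 and 13.07 above vehicle at 12.09, 12.72 and 12.70. Eif3d rose by 1.54 ± 0.31 (adjusted p = 0.00448), at 13.32, 12.26 and 12.10 beside 10.33, 11.26 and 11.48. Eif4a-ps4 rose by 1.72 ± 0.36 (adjusted p = 0.00504), at 16.56, 15.75 and 14.76 beside 13.48, 14.15 and 14.27. In all 3 genes the treated and vehicle arrays did not overlap, and replicate 1 was the highest and replicate 3 the lowest of the treated arrays. Eif1b (1.41 ± 0.29; adjusted p = 0.00448), Eif2s2 (1.33 ± 0.27; adjusted p = 0.00433) and Eif4e (1.06 ± 0.25; adjusted p = 0.0119) also rose. Eif4ebp1, at 11.15, 10.13 and 9.49, differed by 0.82 ± 0.39 (adjusted p = 0.242). The count rests on 1 treated array: without KO IGF1 2 h replicate 1 it was 0, without replicate 2 it was 8 and without replicate 3 it was 20.

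At 24 h after the first IGF1 injection 18 of the 53 genes were higher in the KO and 0 lower, where 13.6% of all genes were called (9.28% higher and 4.35% lower); quantile normalization gave 14 and 2. Eif5al3-ps rose from 8.28, 7.99 and 8.16 to 10.26, 10.87 and 10.42, by 2.38 ± 0.30 (limma adjusted p = 4.69e-05), and Eif5a to 10.70, 11.07 and 10.87, by 1.49 ± 0.24 (adjusted p = 0.000228). Eif3i rose from 11.07, 11.04 and 11.69 to 12.57, 12.95 and 13.34, by 1.69 ± 0.28 (adjusted p = 0.000277). None of these groups overlapped. Of 12 eIF3 genes 5 rose, among them Eif3k (1.34 ± 0.29; adjusted p = 0.00299), and of 5 eIF4F genes 4, among them Eif4g3 (0.76 ± 0.12; adjusted p = 0.000228) and Eif4h (1.05 ± 0.34; adjusted p = 0.0411), a cofactor of the helicase that was called in no other comparison with vehicle. Eif2ak2 rose from 9.34, 9.48 and 9.62 to 10.60, 10.65 and 10.57, without overlap, by 1.13 ± 0.20 (adjusted p = 0.000507), and was the 1 kinase called. Of the 18 calls 12 held whichever array was left out, the others being Eif2b2, Eif2b4, Eif4a1, Eif4e, Eif4e2 and Eif4h. In these arrays 2 of 3 cycling, 3 of 12 epithelial, 6 of 9 stromal and 1 of 4 neutrophil markers were higher and 1 stromal marker was lower; the neutrophil list read 7.79 to 10.6 beside 5.75 to 6.67 in KO vehicle. Their part in the factor changes was not tested.

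Set against WT under the same treatment, the KO differed most with estradiol at 24 h. With vehicle 2 genes were higher in the KO and 0 lower, where 2.92% of all genes were called (1.61% higher and 1.30% lower). These were Eif1a (0.79 ± 0.22; limma adjusted p = 0.0439), which was not called without WT vehicle replicate 1 (0.68; adjusted p = 0.165), and the pseudogene Eif1-ps3 (0.71 ± 0.15; adjusted p = 0.00857). The count was 0 without WT vehicle replicate 3 or KO vehicle replicate 1, and 1 without KO vehicle replicate 2. With vehicle 5 of 12 epithelial markers were higher in the KO, and with IGF1 at 24 h 5 of 12. With estradiol at 2 h 2 were higher and 14 lower, where 17.9% of all genes were called (9.20% higher and 8.67% lower). Eif2s2 was lower by -1.97 ± 0.27 (adjusted p = 7.41e-06), Eif4a1 by -1.77 ± 0.26 (adjusted p = 2.12e-05) and Eif4g2 by -1.23 ± 0.14 (adjusted p = 5.23e-07), while the kinases Eif2ak3 (0.92 ± 0.14; adjusted p = 2.6e-05) and Eif2ak2 (0.76 ± 0.20; adjusted p = 0.00741) were the 2 that were higher. In this comparison 8 of 12 epithelial markers were higher and 1 lower and 6 of 9 stromal markers were higher in the KO, and their part was not tested. Of these 16 calls 11 held whichever array was left out, the others being Eif2ak2, Eif3d, Eif4e2, Eif5b and Eif6.

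With estradiol at 24 h 38 of the 53 genes were lower in the KO and 5 higher, where 47.0% of all genes were called (19.3% lower and 27.7% higher). The median difference was -0.94, beside 0.18 over all genes, and quantile normalization gave 26 lower and 8 higher. Of the 43 calls 37 held whichever array was left out, the others being Eif2a, Eif2ak4, Eif2d, Eif3h, Eif3m and Eif5b. Of 12 eIF3 genes 10 were lower, led by Eif3d (-3.34 ± 0.31; limma adjusted p = 1.58e-08), Eif3b (-3.13 ± 0.29; adjusted p = 1.95e-08) and Eif3l (-2.57). For Eif3d the KO arrays read 10.71, 10.11 and 10.93 and the WT arrays 13.64, 14.19 and 13.93, more than 2 log2 units apart. The dimmer probe set of Eif3d differed less, by -1.20 (limma adjusted p = 0.000389). All 5 eIF4F genes were lower, with Eif4h at -1.89 ± 0.34, Eif4a1 at -1.78 and Eif4e at -1.75; without KO E2 24 h replicate 2, Eif4h was at -1.26 (adjusted p = 0.000545). Eif2b5 was lower by -2.04 ± 0.20 (adjusted p = 3.09e-08) and Eif5a by -2.20 ± 0.24 (adjusted p = 1.35e-07), while Eif5a2 was higher by 0.41. Eif3f, Eif3m and Eif5b were called lower, by -0.57, -0.60 and -0.37, but came out at 0.047, 0.17 and 0.31 after quantile normalization. Of the regulators Eif2ak2 (-1.76 ± 0.20; adjusted p = 2.44e-07), Eif2ak1 (-0.87), Eif2ak3 (-0.57) and Eif4ebp2 (-1.22 ± 0.18; adjusted p = 8.92e-06) were lower, and Eif2ak4 was higher by 0.40 ± 0.13 (adjusted p = 0.0142). In the same comparison all 3 cycling, 6 of 12 epithelial, 6 of 9 stromal and all 6 smooth muscle markers were lower in the KO, and their part was not tested.

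**Figure D5:**
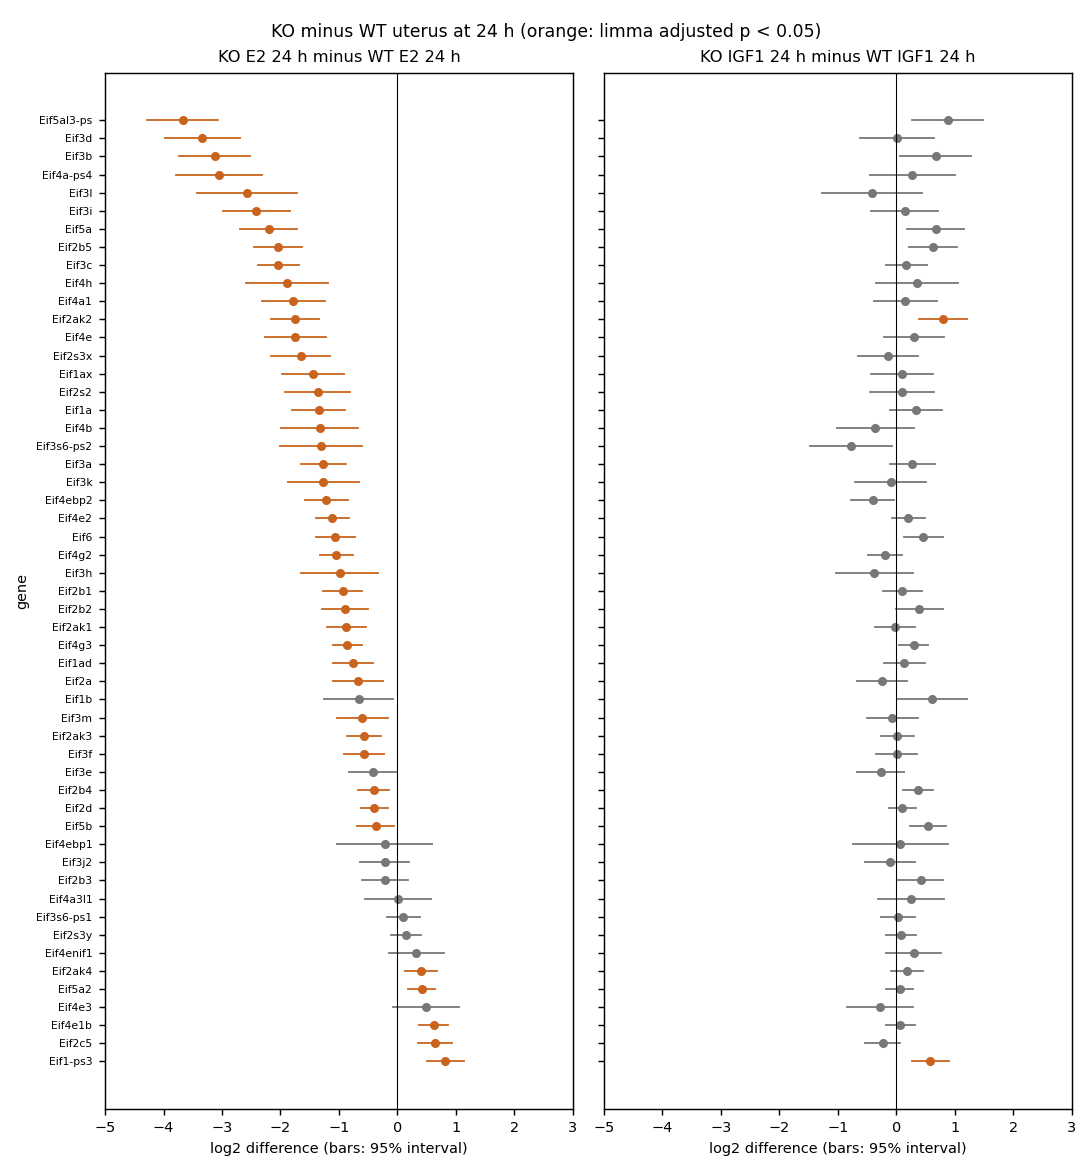
Log2 difference between KO and WT uteri at 24 h (horizontal axes, with 95% intervals) for each initiation factor gene, with estradiol in the left panel and IGF1 in the right, in the order of the estradiol differences and with called genes in orange. With estradiol most genes lie below 0, with Eif3d and Eif3b lowest among the factors (-3.34 and -3.13), while Eif2ak4 (0.40) and Eif5a2 (0.41) lie above it, and with IGF1 2 genes are called.

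With IGF1 fewer genes were called between the genotypes. At 2 h limma called 0 of the 53 genes between KO and WT, where 1.95% of all genes were called (1.03% higher and 0.922% lower); at an unadjusted p below 0.05 there were 1 higher and 13 lower, and Eif4g3 came nearest (adjusted p = 0.0532). That count of 0 became 7 without KO IGF1 2 h replicate 1. At 24 h 2 were higher and 0 lower, where 2.86% of all genes were called (1.39% higher and 1.47% lower). They were Eif2ak2 (0.80 ± 0.20; adjusted p = 0.025), at 10.60, 10.65 and 10.57 in the KO and 9.74, 9.77 and 9.91 in WT, and Eif1-ps3 (0.58 ± 0.15; adjusted p = 0.0384). The count fell to 1 or 0 whichever array of these groups was left out, 0 without WT IGF1 24 h replicate 2 or KO IGF1 24 h replicate 1 or 2.

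The tests of whether a treatment's change differed between genotypes gave the same order. For estradiol at 2 h 11 genes differed, 10 with a lower change in the KO and 1 (Eif2ak3) with a higher one, where 8.00% of all genes were called (4.39% lower and 3.61% higher). For estradiol at 24 h 30 differed (27 lower and 3 higher), where 22.1% of all genes were called (12.2% lower and 9.96% higher), with a median of -0.75 beside 0.19 over all genes. Of these calls 8 of 11 and 23 of 30 held whichever 1 array was left out. Without WT vehicle replicate 1 the calls lost were Eif4e at 2 h (adjusted p = 0.0537) and, at 24 h, Eif2ak1 (0.0667), Eif2ak3 (0.0863), Eif2d (0.0916) and Eif2c5 (0.0733), each an adjusted p. For IGF1 limma called 0 at 2 h and 0 at 24 h, where 0.0133% and 0.00664% of all genes were called, and unadjusted p-values below 0.05 came to 1 higher and 4 lower, and to 7 higher and 0 lower. For Eif4a1 the IGF1 change at 2 h was -0.50 ± 0.37 in the KO relative to WT, with a 95% interval from -1.26 to 0.26, and for Eif2ak2 at 24 h it was 0.83 ± 0.28, from 0.25 to 1.41 (adjusted p = 0.63). The intervals leave room for differences of the size of many of the changes themselves.

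Genes around the family were read from 4 lists of the wider pathway, to be set against the shares of all genes called: 9.84% higher and 9.18% lower with estradiol at 2 h, 16.8% and 13.3% at 24 h, and 9.54% and 7.64% with IGF1 at 2 h in WT, and 4.19% and 2.95% with IGF1 at 2 h in the KO. Of 21 measured partners of the factors (ribosome recycling, eIF4A inhibitors, eIF5 mimics, poly(A)-binding regulators), 9 rose with estradiol at 2 h in WT and 0 fell, led by Abce1 (1.98), the recycling ATPase, and Larp1 (1.81). At 24 h 13 rose and 1 fell, led by the eIF5 mimic genes Bzw1 (2.28) and Bzw2 (1.96), with Impact, an inhibitor of GCN2 activation, at -0.88. The medians of these 21 genes were 0.41 and 0.69, beside -0.09 and -0.10 over all genes. With IGF1 at 2 h 9 rose and 2 fell, and the 2 were inhibitors of initiation: Pdcd4, which binds eIF4A (-0.83), and Paip2, which binds poly(A)-binding protein (-1.50). In the KO with IGF1 at 2 h 7 rose and 2 fell, the 2 being Pdcd4 (-1.19) and Paip2 (-1.02).

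Of 15 genes of the eIF2 stress pathway, 12 rose and 1 fell with IGF1 at 2 h in WT. Asparagine synthetase Asns (2.85) and Chac1 (2.64) were highest. In the KO 8 rose, counted on all arrays only, with the same leading pair (2.48 and 2.39). Trib3, among the 12, had means below the floor with IGF1 (5.58) and vehicle (4.85), so its difference describes background signal. The vehicle means of Chac1 (4.98 in WT and 5.12 in the KO) and Sesn2 (5.45 in WT) were also below it. The sizes of those rises therefore depend on background. With estradiol at 2 h 6 rose, led by Ppp1r15a (2.73), which encodes the GADD34 subunit that reverses eIF2 phosphorylation, and Atf4 (2.18). The list medians at 2 h were 1.32 with IGF1 and 0.54 with estradiol in WT, beside -0.08 and -0.09 over all genes. Estradiol minus IGF1 at 2 h in WT gave 3 higher and 6 lower, where 2.80% of all genes were higher and 2.77% lower. Of 18 mTOR pathway genes 4 rose and 3 fell with estradiol and 6 rose and 5 fell with IGF1 at 2 h, with medians of 0.03 and 0.12. Sesn1 and Sesn3, which encode sestrins that restrain mTOR complex 1, fell by 2.94 and 2.64 with estradiol and by 2.93 and 2.64 with IGF1, while Sesn2, a sestrin gene that ATF4 induces, rose by 1.09 with IGF1. Mlst8, a core mTOR subunit, rose by 0.90 and 1.04 and by 1.72 with estradiol at 24 h. Of 16 elongation and termination genes, 4 rose and 1 fell with estradiol at 2 h and 11 rose and 0 fell at 24 h, with medians of 0.07 and 0.59. With estradiol at 24 h the mitochondrial elongation factor gene Tufm rose by 2.29. The release factor gene Etf1 rose early, by 2.57 with estradiol and 2.40 with IGF1, and Eef2k, the kinase that inhibits elongation factor 2, fell by 1.12 and 0.47.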

How the data were processed

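The deposited values are the authors' log2 expression values per probe set from biotin-labelled total RNA (300 ng per array, per the labels' protocols); how they were normalized, with which software and on which build is not given in the sources used here. Of 72688 probe sets, 30604 had 1 gene symbol, 2146 several and 39938 were not listed in the platform annotation; 827 symbols were updated through Entrez numbers. Where a gene had more than 1 probe set (355 genes), that with the highest mean stood for it. One linear model with 10 group means over 30 arrays was fitted to 30142 genes with limma 3.58.1 (R 4.3.3, lmFit and eBayes), for 21 comparisons. p-values were Benjamini-Hochberg adjusted within each comparison over all genes, and a gene was called at an adjusted p below 0.05. Differences are given ± SE. The number of arrays limits the precision; the fit has 20 residual degrees of freedom, and an exact two-sided permutation test of 3 against 3 cannot go below 0.1. The procedure was tested on simulated data.

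All members may be named. Full values were given for the called members with the largest changes in each complex and comparison, per-array values for the 2 called with the largest changes against each vehicle and for called kinases and repressors, and from each partner list up to 2 genes with the largest rise and fall; further per-array values, and the text's choice among them, were made after the values were seen. The members, lists and tests were chosen with earlier results of these data known, so no count over them is independent evidence. Promoters came from RefSeq tables of build GRCm38.p6. Replicate numbers did not pair the arrays: mean correlations of deviations between same-numbered arrays were -0.0087, -0.0012 and 0.0289 over 45 pairs each. Quantile normalization, median centring, other fits and filters, array weights and left-out arrays were tried, and testing every probe set on its own was added after seeing the data; it moved no count of called members by over 1.5 times.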

Additional observations from a re-analysis of the deposited data

Results flagged for a closer look

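The change with estradiol differed between KO and WT uteri, by a test of the difference itself (the interaction term in limma, adjusted p below 0.05), for 11 of the 53 genes at 2 h and 30 at 24 h. Negative values mean a lower change in the KO. These genes are listed because the test called them. Of all genes, the same test called 8.00% at 2 h and 22.1% at 24 h.

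At 2 h the factor genes were Eif1a (-2.02), Eif4a1 (-1.70), Eif2s2 (-1.62), Eif4e (-1.17), Eif5b (-0.98), Eif3a (-0.97), Eif6 (-0.94), Eif4g2 (-0.86) and Eif1ad (-0.81). The pseudogene Eif1-ps3 was at -0.90. The kinase gene Eif2ak3, which fell in WT uteri, was at 0.93.

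At 24 h the eIF3 genes were Eif3b (-3.05), Eif3d (-2.86), Eif3l (-2.85), Eif3i (-1.94), Eif3c (-1.66) and Eif3a (-1.48). The dimmer probe set of Eif3d was at -0.76 and was not called (limma adjusted p = 0.112). The eIF1 and eIF2 genes were Eif1a (-2.14), Eif2s3x (-1.95), Eif1ax (-1.47) and Eif1ad (-0.75), the alternative tRNA carrier was Eif2d (-0.46), and those of eIF2B were Eif2b5 (-2.19), Eif2b2 (-1.05) and Eif2b1 (-0.66). The cap-binding group held Eif4a1 (-1.71), Eif4e (-1.58), Eif4e2 (-0.95) and Eif4g2 (-0.68), and the late steps Eif5a (-2.52), Eif6 (-1.42) and Eif5b (-0.81). Eif5a2, the paralog that fell in WT, was at 0.70. The regulators were Eif2ak2 (-1.73), Eif4ebp2 (-1.33), Eif2ak1 (-0.74) and Eif2ak3 (-0.56). The pseudogene probe sets Eif5al3-ps and Eif4a-ps4 were at -3.50 and -2.76. Eif4e1b (0.70) and Eif2c5 (0.63) lay below the floor on every array, so their values describe background signal.

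Of these calls 8 of 11 at 2 h and 23 of 30 at 24 h held whichever 1 array was left out. The others were Eif1ad, Eif3a and Eif4e at 2 h and Eif1ad, Eif2ak1, Eif2ak3, Eif2b1, Eif2c5, Eif2d and Eif4g2 at 24 h. Without WT vehicle replicate 1 the adjusted p was 0.0537 for Eif4e at 2 h, and at 24 h 0.0667 for Eif2ak1, 0.0863 for Eif2ak3, 0.0916 for Eif2d and 0.0733 for Eif2c5.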

How the results depend on the processing

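Array quality, unmatched vehicle times and 3 arrays per group limit these results. Leaving out 1 array at a time gave, against vehicle in WT, 18 to 22 calls for estradiol at 2 h (24 with all arrays), 33 to 34 at 24 h (34), 21 to 26 for IGF1 at 2 h (26) and 0 to 6 at 24 h (6). In the KO it gave 0 to 1 for estradiol at 2 h (1), 0 at 24 h (0), 0 to 20 for IGF1 at 2 h (13) and 12 to 20 at 24 h (18). Between genotypes it gave 0 to 3 with vehicle (2), 13 to 16 and 38 to 42 with estradiol at 2 h and 24 h (16 and 43), and 0 to 7 and 0 to 1 with IGF1 (0 and 2). For the interactions it gave 8 to 12 and 24 to 33 for estradiol (11 and 30) and 0 for IGF1 at both times. Estradiol minus IGF1 gave 1 to 2 at 2 h (3; 1 without WT E2 2 h replicate 3) and 10 to 19 at 24 h (19; 10 without WT IGF1 24 h replicate 2). The time comparisons gave 16 to 20 for estradiol (25; 16 without WT E2 24 h replicate 2) and 13 to 18 for IGF1 (20; 13 without WT IGF1 24 h replicate 2).

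Other settings moved these counts by over 1.5 times; the cause was not tested. WT IGF1 at 24 h had 3 calls after quantile normalization, 12 with array weights, 2 without both lowest-weight arrays and 0 when only the compared groups were fitted. KO estradiol at 2 h had 2 with quantile normalization, 2 without both arrays and 0 with only the compared groups, and KO IGF1 at 2 h had 0 with only the compared groups. KO minus WT with vehicle had 1 after centring, 1 with a trended robust fit, 8 with array weights, 1 with the replicate block and 0 with only the compared groups. KO minus WT with IGF1 had at 2 h 1 with quantile normalization, 2 with dim genes removed, 1 with array weights and 4 without both arrays, and at 24 h 1, 1 (trended), 7 (weights), 4 (without both) and 1 (only compared groups). Array weights gave 18 for the estradiol interaction at 2 h, and 7 and 30 for estradiol minus IGF1 at 2 h and 24 h; only the compared groups gave 5 at 2 h.

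Quantile normalization turned 6 single calls: Eif4g2 and Eif5b with estradiol at 24 h in WT (-0.15 and -0.031), Eif3f, Eif3m and Eif5b between genotypes at 24 h (0.047, 0.17 and 0.31) and the Eif4g2 interaction (0.032). A fit with the replicate number as a block, although the numbers do not pair the arrays, gave 24, 35, 25 and 5 calls for the 4 WT comparisons with vehicle, and 43 between genotypes with estradiol at 24 h; it moved only the vehicle comparison of genotypes by over 1.5 times.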
